A study of Mus musculus with 23 samples.

Results

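The clock repressors and D-box output genes are 9 genes of the daily clock, examined here in the aortas of ApoE-/- mice: Nr1d1, Nr1d2, Dbp, Tef, Hlf, Per1, Per2, Per3 and Bhlhe41. They were chosen by name, with earlier results of these arrays known, most of them for a difference between CIH 12W and CIH 8W + Nor 4W. The arrays of these 2 groups thus had a part in the choice, and in every comparison that uses them the number of the 9 genes called is a description, from which nothing is read against the share of all probe sets printed beside it. The value of a gene is that of its brightest probe set among those that carry its symbol alone. Each of the 9 had 1 such probe set, out of 30176 genes and 65956 gene-level probe sets in all. RNA of aorta from male C57BL/6J mice that lack apolipoprotein E, 8 weeks old when obtained and then kept on high-fat feed, was measured on 23 Clariom D arrays. The CIH 12W mice had 12 weeks of chronic intermittent hypoxia (CIH, a chamber in which oxygen falls and returns in short cycles through the hours in which mice sleep; n = 4). The CIH 8W + Nor 4W mice had 8 weeks of CIH and then 4 weeks of normoxia (n = 4). The Nor 12W mice breathed room air for 12 weeks (n = 5). The CIH 8W mice had 8 weeks of CIH (n = 5), and the Nor 8W mice breathed room air for 8 weeks (n = 5). All 5 groups share the genotype and the diet, so no group shows an artery free of either. The aortas were taken on the day after the last exposure, and the hour is not given in the sources used here. Values are log2 signals as deposited, on which a difference of 1 is a doubling of the deposited signal and may not be a doubling of RNA. For bright probe sets this scale is wider than that of the study's supplementary tables. The paper also prints smaller folds for the dimmer genes Tef, Per3 and Bhlhe41 between CIH 12W and CIH 8W + Nor 4W. On the deposited scale these were 2.49, 3.48 and 3.18-fold lower in CIH 12W. For Nr1d1, Dbp and Nr1d2 the paper prints smaller folds as well, where the deposited scale gave 57.6, 18.9 and 14.0-fold lower in CIH 12W. Folds given here are those of the deposited scale, and are thus larger than the paper's for all these genes.

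The clock of most mouse cells is a loop of transcription. BMAL1 (from Arntl) pairs with CLOCK or NPAS2 at E-boxes and switches on the Period and Cryptochrome genes, whose proteins return to silence the pair. The same pair drives Nr1d1 and Nr1d2, which encode the nuclear receptors REV-ERB alpha and REV-ERB beta and repress Arntl, and Bhlhe41, which encodes the E-box repressor DEC2. It also drives Dbp. Dbp, Tef and Hlf encode transcription factors of the PAR bZip family, which bind D-boxes and pass the rhythm on to output genes. In arteries the loop is known to be active in smooth muscle and endothelium, and its repressor and activator arms peak at opposite parts of the day.

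RefSeq promoter windows (250 bases before the start site and 50 from it onward, build GRCm38.p6) were matched for 8 of the 9 genes, all but Per2, in 10 windows. The 250 bases before the start are shown for the windows that hold an exact match to an E-box, a variant E-box or a D-box, because these are the elements through which the 9 genes are known to be linked. Capitals mark the match, and both strands were searched for CACGTG (E-box), CACGTT (variant E-box, read on the other strand in Nr1d1), TTATGTAA and TTACGTAA (D-box).
Nr1d1, chr11:98775378-98775627, minus strand: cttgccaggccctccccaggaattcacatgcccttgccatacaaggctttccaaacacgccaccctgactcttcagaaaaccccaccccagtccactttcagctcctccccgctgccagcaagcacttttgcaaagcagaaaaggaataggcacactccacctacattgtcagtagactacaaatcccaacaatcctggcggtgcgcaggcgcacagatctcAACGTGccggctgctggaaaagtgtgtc
Tef, first window, chr15:81802423-81802672, plus strand: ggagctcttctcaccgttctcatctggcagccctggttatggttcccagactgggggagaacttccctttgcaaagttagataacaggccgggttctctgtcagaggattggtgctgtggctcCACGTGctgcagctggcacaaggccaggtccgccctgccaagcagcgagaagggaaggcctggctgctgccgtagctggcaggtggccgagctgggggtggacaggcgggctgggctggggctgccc
Tef, second window, chr15:81811164-81811413, plus strand: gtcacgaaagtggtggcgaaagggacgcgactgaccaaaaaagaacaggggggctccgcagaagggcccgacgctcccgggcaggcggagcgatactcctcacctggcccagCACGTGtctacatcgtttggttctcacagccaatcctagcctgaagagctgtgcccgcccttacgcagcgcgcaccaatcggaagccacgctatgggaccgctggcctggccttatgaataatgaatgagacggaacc
Per1, first window, chr11:69098699-69098948, plus strand: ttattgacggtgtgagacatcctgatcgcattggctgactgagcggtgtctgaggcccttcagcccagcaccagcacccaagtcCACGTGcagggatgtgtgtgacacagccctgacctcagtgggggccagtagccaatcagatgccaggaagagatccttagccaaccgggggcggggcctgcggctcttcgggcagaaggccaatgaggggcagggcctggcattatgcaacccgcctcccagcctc
Per3, chr4:151044666-151044915, minus strand: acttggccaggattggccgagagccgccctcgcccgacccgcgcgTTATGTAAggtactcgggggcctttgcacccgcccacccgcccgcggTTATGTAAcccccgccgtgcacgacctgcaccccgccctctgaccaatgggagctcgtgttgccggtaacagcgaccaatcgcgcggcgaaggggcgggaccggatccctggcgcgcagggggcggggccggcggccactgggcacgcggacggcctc
Bhlhe41, chr6:145865421-145865670, minus strand: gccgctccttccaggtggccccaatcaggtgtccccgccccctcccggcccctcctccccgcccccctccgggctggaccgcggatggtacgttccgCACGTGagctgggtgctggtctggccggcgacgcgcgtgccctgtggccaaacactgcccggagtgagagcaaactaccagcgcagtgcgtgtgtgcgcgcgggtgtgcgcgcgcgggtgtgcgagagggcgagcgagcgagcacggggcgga
An E-box stood in 4 of the 10 windows, which belong to 3 genes, Tef (2 windows), Per1 and Bhlhe41, against 7.15% of all 32851 windows. The variant E-box of Nr1d1, 28 bases before the start, is a sequence held by 4.68% of all windows. Per3 had 2 copies of TTATGTAA, 205 and 158 bases before its start, a sequence in 0.938% of all windows. TTACGTAA, in 0.119% of all windows, was matched in none of the 10 windows. An element bound by REV-ERB and ROR receptors (AGGTCA, with A or T, any base and A or T before it, in 3.71% of all windows) was also matched in none of them. In GRCm38.p6 the genes lie as follows: Nr1d1 at chr11:98767932-98775377, Nr1d2 at chr14:18204056-18239106, Dbp at chr7:45705100-45710203, Tef at chr15:81802673-81826863, Hlf at chr11:90336535-90390917, Per1 at chr11:69095108-69109965, Per2 at chr1:91415977-91459351, Per3 at chr4:150997018-151044707 and Bhlhe41 at chr6:145858243-145865420. A match is a description of the letters only, and no match says no more than that these letters are not in the window.

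The arrays were close to one another, with a Pearson r between 0.975 and 0.997 for any 2 of them over all gene-level probe sets and array medians of 3.63 to 3.78. Apoe itself read 4.58 to 5.41 on the 23 arrays, near the 95th percentile of each array's background probes (4.64 to 5.50), and since every group carries the allele it checks no group label. Smooth muscle markers were bright, with Acta2 between 19.86 and 19.92. On 5 arrays (Nor 12W replicates 3 and 4, CIH 8W replicates 3 and 5, and Nor 8W replicate 3) the mean log2 signal of 8 sympathetic neuron markers was 7.78 to 13.66, against 4.81 to 6.10 on the other 18, and where a call or the sign of a difference changed without these 5, or a difference moved by more than 1.5-fold, that is said. In whole aorta, fewer cells of a type and less RNA per cell cannot be told apart. Of the 9 clock genes, 7 were above background on all 23 arrays, Hlf on 19 and Per3 on 18, so none was left out of a fit.

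Of the 2 REV-ERB genes, Nr1d1 spanned 7.81 on the log2 scale over the 23 arrays, the most of the 9 genes, and Nr1d2 spanned 5.74. Nr1d1 read 7.12, 6.46, 9.62 and 5.54 in CIH 12W aortas (in replicate order, as in every such list), 13.35, 13.16, 12.94 and 12.67 in CIH 8W + Nor 4W, 11.72, 10.88, 11.69, 11.49 and 10.78 in Nor 12W, 8.51, 11.75, 8.39, 9.70 and 8.94 in CIH 8W arrays and 11.57, 6.64, 7.58, 7.40 and 7.82 in Nor 8W arrays. The 4 CIH 8W + Nor 4W arrays were higher than all others and lay within 0.68 of each other, while the CIH 12W arrays spread over 4.07 and the Nor 8W arrays over 4.93. By group mean the order, from the highest, was CIH 8W + Nor 4W, Nor 12W, CIH 8W, Nor 8W, CIH 12W, and only the first 2 groups did not overlap as neighbours in it. Nr1d2 read 11.34, 7.62, 9.49 and 8.77 in CIH 12W aortas, 13.29, 13.36, 12.90 and 12.89 in CIH 8W + Nor 4W, 12.32, 11.58, 12.52, 12.23 and 11.25 in Nor 12W, 12.15, 11.94, 10.32, 11.98 and 9.86 in CIH 8W arrays and 11.93, 9.49, 10.03, 10.74 and 9.31 in Nor 8W arrays. Its groups stood in the same order as those of Nr1d1, and again only CIH 8W + Nor 4W and Nor 12W did not overlap as neighbours. Nor 8W replicate 1 was the highest of its group for both genes and, for Nr1d1, read 11.57 where the next array of the group read 7.82.

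**Figure D1:**
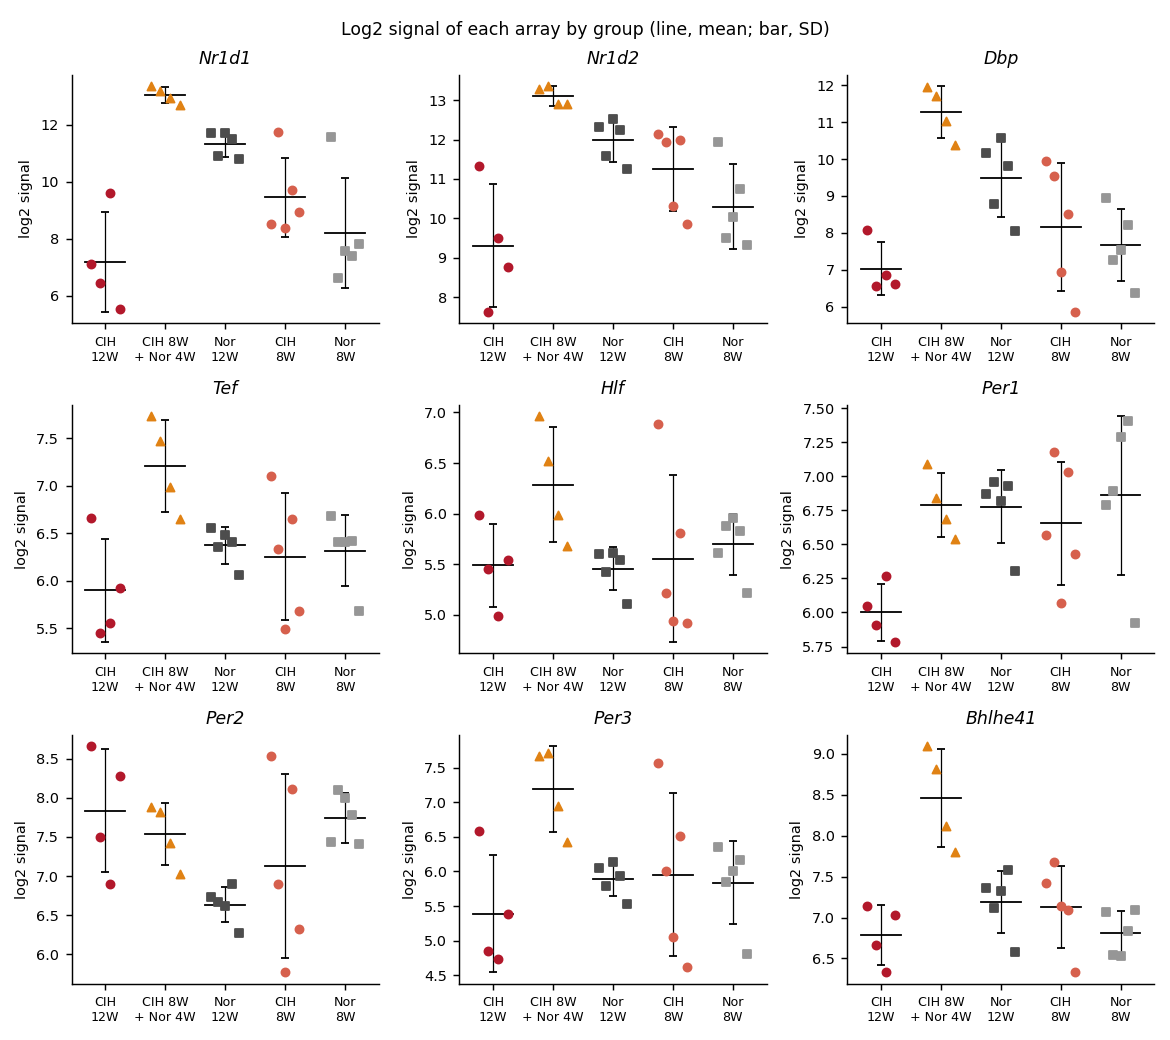
Log2 signal (vertical axis) of the 9 genes on each of 23 arrays, by group from left to right, CIH 12W (n = 4), CIH 8W + Nor 4W (n = 4), Nor 12W, CIH 8W, Nor 8W (n = 5 each of the last 3). Points are single arrays in replicate order, lines are means and bars are SDs; for Nr1d1 the CIH 8W + Nor 4W arrays lie between 12.67 and 13.35 and the CIH 12W arrays between 5.54 and 9.62.

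Of the PAR bZip genes, Dbp had the levels that varied most. Dbp read 8.09, 6.55, 6.86 and 6.62 in CIH 12W aortas, 11.96, 11.71, 11.03 and 10.38 in CIH 8W + Nor 4W, 10.16, 8.78, 10.58, 9.81 and 8.06 in Nor 12W, 9.95, 9.54, 6.93, 8.51 and 5.86 in CIH 8W arrays and 8.94, 7.27, 7.53, 8.21 and 6.36 in Nor 8W arrays. Its groups stood in the order of the REV-ERB genes, but all neighbours in that order overlapped, and the CIH 8W arrays alone spread over 4.10. Tef averaged 5.90 ± 0.55 in CIH 12W, 7.21 ± 0.49 in CIH 8W + Nor 4W, 6.37 ± 0.19 in Nor 12W, 6.25 ± 0.67 in CIH 8W arrays and 6.32 ± 0.38 in Nor 8W arrays (SD, n = 4, 4, 5, 5 and 5). Hlf averaged 5.49 ± 0.41 in CIH 12W, 6.29 ± 0.57 in CIH 8W + Nor 4W, 5.46 ± 0.21 in Nor 12W, 5.56 ± 0.82 in CIH 8W arrays and 5.70 ± 0.30 in Nor 8W arrays (SD, the same n). For both, CIH 8W + Nor 4W had the highest mean, the means of the other 4 groups lay between 5.90 and 6.37 for Tef and between 5.46 and 5.70 for Hlf, and the arrays of neighbouring groups overlapped except those of CIH 8W + Nor 4W and Nor 12W for Tef.

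The Period genes, which encode the repressors that bind the activator pair, did not share 1 order. Per1 read 6.05, 5.91, 6.27 and 5.78 in CIH 12W aortas, 7.09, 6.84, 6.69 and 6.54 in CIH 8W + Nor 4W, 6.87, 6.96, 6.82, 6.93 and 6.30 in Nor 12W, 6.57, 7.18, 6.07, 7.03 and 6.43 in CIH 8W arrays and 6.79, 6.89, 7.29, 7.41 and 5.92 in Nor 8W arrays, so that CIH 12W had the lowest mean and lay below all arrays of CIH 8W + Nor 4W and Nor 12W, but not below all of the 8-week groups. Per2 read 8.66, 7.50, 6.90 and 8.28 in CIH 12W aortas, 7.89, 7.82, 7.42 and 7.03 in CIH 8W + Nor 4W, 6.73, 6.66, 6.62, 6.89 and 6.27 in Nor 12W, 8.54, 6.90, 5.77, 8.12 and 6.32 in CIH 8W arrays and 7.43, 8.10, 8.00, 7.78 and 7.41 in Nor 8W arrays. Per2 was the only one of the 9 whose highest mean was that of CIH 12W, and its lowest was that of Nor 12W. Per3 averaged 5.39 ± 0.85 in CIH 12W, 7.19 ± 0.62 in CIH 8W + Nor 4W, 5.89 ± 0.24 in Nor 12W, 5.95 ± 1.17 in CIH 8W arrays and 5.84 ± 0.60 in Nor 8W arrays (SD, n = 4, 4, 5, 5 and 5). Bhlhe41 read 7.14, 6.66, 6.33 and 7.03 in CIH 12W aortas, 9.09, 8.81, 8.12 and 7.80 in CIH 8W + Nor 4W, 7.36, 7.12, 7.32, 7.58 and 6.58 in Nor 12W, 7.42, 7.67, 7.13, 7.09 and 6.33 in CIH 8W arrays and 7.06, 6.54, 6.53, 6.83 and 7.09 in Nor 8W arrays. The 4 CIH 8W + Nor 4W arrays of Bhlhe41 were above every array of the other groups, whose means lay between 6.79 and 7.19.

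CIH for 12 weeks was compared with normoxia for 12 weeks to see what long exposure does. Both REV-ERB genes and Dbp were lower in CIH 12W, as was Per1, while Per2 was higher. In a limma fit with a mean for each of the 5 groups over all 65956 probe sets, a gene counted as called where its unadjusted p was under 0.05 and its fold over 1.1. By this rule 4 of the 9 genes were lower in CIH 12W, against 6.99% of all probe sets, and 1 was higher, against 4.29%, and the median log2 difference was -0.50 over the 9 and -0.03 over all probe sets. Nr1d1 averaged 7.19 in CIH 12W and 11.31 in Nor 12W, a log2 difference of -4.13 ± 0.86 (SE), 17.5-fold lower, with an adjusted p of 0.0222 (Benjamini-Hochberg over all probe sets). Without CIH 12W replicate 3, at 9.62 the highest of its group, it was 30.6-fold lower (-4.94). Nr1d2 averaged 9.31 in CIH 12W and 11.98 in Nor 12W, a log2 difference of -2.67 ± 0.63, 6.38-fold lower, with an adjusted p of 0.0465, and without CIH 12W replicate 1 it was 10.2-fold lower (-3.35). These 2 genes passed after adjustment, as did 0.89% of all probe sets. Dbp was 5.45-fold lower (log2 difference -2.45 ± 0.72, adjusted p 0.130) and Per1 1.71-fold lower (-0.77 ± 0.25, adjusted p 0.183). Per2 was 2.30-fold higher in CIH 12W (log2 difference 1.20 ± 0.44, adjusted p 0.257). The arrays of the 2 groups did not overlap for Nr1d1 and Per1, which were lower (3.2% of all probe sets), and for Per2, which was higher (1.99%). The closest arrays of CIH 12W and Nor 12W read 9.62 and 10.78 for Nr1d1. For Per1 they read 6.27 and 6.30, and for Per2 6.90 and 6.89, so for these genes the groups were barely apart. The remaining 4 genes were not called, with log2 differences of -0.47 for Tef, -0.50 for Per3, -0.40 for Bhlhe41 and 0.04 for Hlf, and their 95% intervals ran from -1.51 at the lowest to 0.71 at the highest. Without CIH 12W replicate 1, whose Per2 was the highest of all arrays, Per2 was not called (0.93) and Tef was (-0.73).

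Markers of other cells moved in the same comparison. Here and below, a marker or other gene is counted as higher or lower only where it was called by the same rule. Of 7 brown adipocyte markers 4 were lower in CIH 12W, among them Ucp1 (thermogenic uncoupling) and Cidea (lipid droplets), which are the 2 brightest, and the log2 of their summed signal was 10.63 to 13.83 in CIH 12W arrays and 11.84 to 17.06 in Nor 12W arrays. Elovl3, a further marker of that list, was above background on 5 of the 23 arrays. Of 7 markers of adipocytes of either kind 5 were lower, with a summed log2 signal of 15.81 to 16.84 in CIH 12W and 16.46 to 18.27 in Nor 12W. Of 8 sympathetic neuron markers, 2 of them above background on at least 12 arrays, 0 were called by limma at an unadjusted p, with a summed log2 signal of 9.14 to 9.57 in CIH 12W and 9.23 to 16.19 in Nor 12W. Of 5 glial markers 3 were lower, at 7.09 to 7.44 in CIH 12W and 7.49 to 11.56 in Nor 12W. Of 8 smooth muscle markers 3 were higher, at 20.98 to 21.01 in CIH 12W and 20.63 to 20.97 in Nor 12W, and of 7 endothelial markers 2 were lower, at 15.22 to 15.88 in CIH 12W and 15.36 to 15.99 in Nor 12W. Of 6 skeletal muscle markers 1, Casq1, was higher (1.12). The part of these cells in the values of the 9 genes was not tested beyond the fits that follow. With the brown adipocyte level of each array as a further term, 5 of the 9 clock genes were called as before, and the difference of Nr1d1 was -4.83. Without the 5 neuron-rich arrays 5 were called too, and the difference of Nr1d1 was -3.94.

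**Figure D2:**
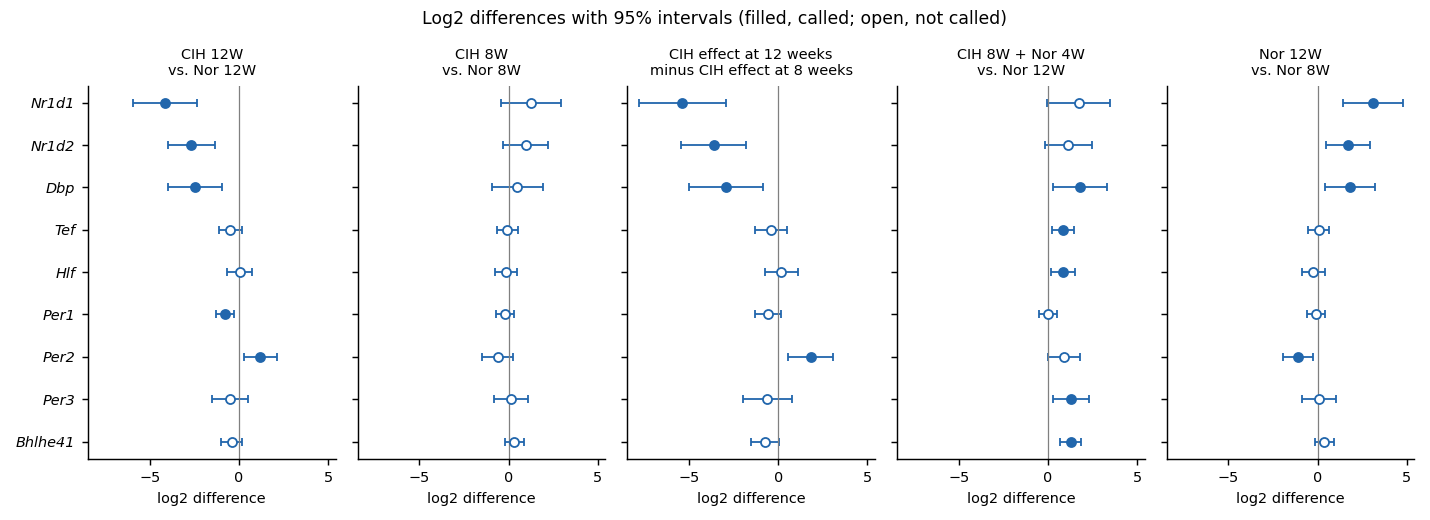
Log2 differences of the 9 genes (horizontal axis) with 95% intervals in 5 comparisons, limma with a mean for each of 5 groups; filled points were called and open points were not. In CIH 12W vs. Nor 12W, Nr1d1, Nr1d2, Dbp and Per1 lie below 0 and Per2 above it; in CIH 8W vs. Nor 8W every interval spans 0.

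CIH for 8 weeks was compared with normoxia for 8 weeks as the early point of exposure. None of the 9 genes was called in limma, at an unadjusted or an adjusted p, against 3.99% of all probe sets that were higher, 2.47% that were lower and 0% at an adjusted p. The arrays of the 2 groups overlapped for all 9, where 0.274% of all probe sets stood apart upward and 0.356% downward. Nr1d1 averaged 9.46 in CIH 8W and 8.20 in Nor 8W, a log2 difference of 1.26 with a 95% interval of -0.42 to 2.94. The intervals were also wide for Nr1d2 (0.95, -0.29 to 2.19) and Dbp (0.50, -0.92 to 1.91). For the other 6 genes the differences ran from -0.62 (Per2) to 0.32 (Bhlhe41), and the median over the 9 was 0.11, against -0.0032 over all probe sets. Single arrays decided whether a gene was called here. Without Nor 8W replicate 1, Nr1d1 (2.10) and Nr1d2 (1.36) were called higher in CIH 8W. Without CIH 8W replicate 5, Nr1d2 (1.30) and Bhlhe41 (0.52) were called. Per2 was called lower in CIH 8W without CIH 8W replicate 1 (-0.97) or without CIH 8W replicate 4 (-0.87), and Per1 without Nor 8W replicate 5 (-0.44). Without the neuron-rich arrays, which include CIH 8W replicates 3 and 5, Nr1d2 (1.65) and Dbp (1.64) were called higher in CIH 8W. The sign then turned for Tef (0.40, against -0.07 with all arrays), Hlf (0.34 against -0.14), Per1 (0.17 against -0.20) and Per2 (0.17 against -0.62), and Per3 moved to 0.90 against 0.11, none of these 5 called, so that all 9 differences were above 0. Macrophage markers moved in this comparison, 7 of 9 being higher in CIH 8W, with a summed log2 signal of 17.44 to 20.11 in CIH 8W and 15.33 to 18.92 in Nor 8W. Of 7 endothelial markers 3 were higher (15.71 to 16.84 in CIH 8W, 15.52 to 16.22 in Nor 8W), and of 8 smooth muscle markers 2 were lower (20.55 to 21.03 in CIH 8W, 20.87 to 20.99 in Nor 8W). Of 6 skeletal muscle markers 1, Casq1, was lower (-1.14). The part of these cells in the values of the 9 genes was not tested.

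The difference between these 2 effects was tested as an interaction, the CIH effect at 12 weeks minus that at 8 weeks. It was called below 0 for Nr1d1 (-5.38 ± 1.18, adjusted p 0.0741), Nr1d2 (-3.62 ± 0.87, adjusted p 0.0979) and Dbp (-2.94 ± 0.99, adjusted p 0.288), 3 of 9 against 6.16% of all probe sets. It was called above 0 for Per2 (1.82 ± 0.60, adjusted p 0.274), 1 of 9 against 4.27%. No gene passed after adjustment, and 0% of all probe sets did. The median was -0.61 over the 9 and -0.03 over all probe sets. For the REV-ERB genes and Dbp the 2 effects had opposite signs, a log2 difference below 0 at 12 weeks and above 0 at 8 weeks. The normoxic groups enter these values too. Nor 12W minus Nor 8W was 3.11 for Nr1d1, 1.68 for Nr1d2, 1.81 for Dbp and -1.11 for Per2. The part of the hour of collection was not tested. Of 8 smooth muscle markers 7 were called above 0 in this difference, and the lowest of the 8 was at 0.03. Their summed log2 signal was 20.98 to 21.01 in CIH 12W, 20.63 to 20.97 in Nor 12W, 20.55 to 21.03 in CIH 8W arrays and 20.87 to 20.99 in Nor 8W arrays. Called below 0 were 5 of 9 macrophage markers (median -1.76), and the highest of the 9 was at -0.82. Their summed log2 signals were 17.68 to 18.63 in CIH 12W, 17.90 to 19.16 in Nor 12W, 17.44 to 20.11 in CIH 8W arrays and 15.33 to 18.92 in Nor 8W arrays. Of 7 endothelial markers 4 were called below 0 (median -0.87), and at most 2 markers of any other cell list were called. The part of these cells in it was not tested. Without the neuron-rich arrays the value for Per2 was 1.11 and not called, Per1 was called (-0.88), Hlf turned to -0.22 against 0.18 with all arrays, Per3 moved to -1.30 against -0.61, and Dbp to -3.61. Without CIH 12W replicate 3 the value for Nr1d1 was -6.19, without Nor 8W replicate 1 it was -6.23, and without CIH 12W replicate 1 that for Nr1d2 was -4.30. Per1 was also called without Nor 8W replicate 4 (-0.71) or CIH 8W replicate 3 (-0.72), and Bhlhe41 without CIH 12W replicate 1 (-0.84), Nor 12W replicate 5 (-0.87) or CIH 8W replicate 5 (-0.92).

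CIH for 8 weeks followed by 4 weeks of normoxia was compared with 12 weeks of normoxia to see what remains after the return to normal air. The genes that were called here were higher, not lower. Of the 9, 5 were higher in CIH 8W + Nor 4W (4.14% of all probe sets), and 0 were lower (5.23%). These were the 3 PAR bZip genes, Per3 and Bhlhe41, and the median log2 difference over the 9 was 1.13, against -0.0015 over all probe sets. Bhlhe41 averaged 8.46 in CIH 8W + Nor 4W and 7.19 in Nor 12W, a log2 difference of 1.26 ± 0.28 with an adjusted p of 0.0545. Tef read 7.74, 7.47, 6.99 and 6.65 in CIH 8W + Nor 4W aortas, against 6.55, 6.36, 6.49, 6.40 and 6.06 in Nor 12W aortas. Hlf read 6.96, 6.52, 5.99 and 5.68 in CIH 8W + Nor 4W aortas, against 5.60, 5.42, 5.61, 5.54 and 5.11 in Nor 12W aortas. Per3 read 7.67, 7.71, 6.95 and 6.42 in CIH 8W + Nor 4W aortas, against 6.05, 5.80, 6.14, 5.93 and 5.53 in Nor 12W aortas. In each of these 3 genes all arrays of CIH 8W + Nor 4W were above all arrays of Nor 12W, for Hlf by the least. The differences were 1.79 ± 0.72 for Dbp (adjusted p 0.393), 0.84 ± 0.30 for Tef (0.332), 0.83 ± 0.33 for Hlf (0.380) and 1.30 ± 0.48 for Per3 (0.351). None passed after adjustment, against 0.3% of all probe sets. For 7 genes all CIH 8W + Nor 4W arrays were above all Nor 12W arrays (1.84% of all probe sets): Nr1d1, Nr1d2, Tef, Hlf, Per2, Per3 and Bhlhe41. Nr1d1 (1.72, 95% interval -0.06 to 3.50), Nr1d2 (1.13, -0.18 to 2.45) and Per2 (0.90, -0.01 to 1.81) were thus apart and yet not called, in a fit whose spread comes from all 5 groups. Per1 differed by 0.01, with an interval of -0.51 to 0.53. Single arrays changed these calls. Without CIH 8W + Nor 4W replicate 1, 2 genes were called, and Dbp (1.56), Tef (0.67) and Hlf (0.60) were not. Without CIH 8W + Nor 4W replicate 2, 3 were called, and Dbp (1.65) and Hlf (0.75) were not. Dbp was not called without Nor 12W replicate 5 (1.44), and Per2 was without CIH 8W + Nor 4W replicate 4 (1.07). This comparison and that of CIH 12W share the Nor 12W arrays, so their values are not independent. Brown adipocyte markers were also lower here, 3 of 7, with a summed log2 signal of 11.73 to 15.86 in CIH 8W + Nor 4W and 11.84 to 17.06 in Nor 12W. Of 6 skeletal muscle markers 2 were higher (median 1.01; summed log2 signal 9.84 to 11.40 in CIH 8W + Nor 4W, 8.83 to 9.90 in Nor 12W), of 5 glial markers 3 were lower (7.28 to 7.48 in CIH 8W + Nor 4W, 7.49 to 11.56 in Nor 12W), and of 8 smooth muscle markers 2 were higher (20.92 to 21.02 in CIH 8W + Nor 4W, 20.63 to 20.97 in Nor 12W). Of the 8 sympathetic neuron markers 1 was lower. Their part was not tested. With the brown adipocyte level as a term of the fit, Dbp was not called (1.48) and Per2 was (1.05). Without the neuron-rich arrays Per2 was called as well (0.98).

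Between CIH 12W and CIH 8W + Nor 4W, the comparison on which most of the 9 genes were selected, the values are a description. All but Per2 were lower in CIH 12W, 8 of 9 by the same rule (3.9% of all probe sets), and 0 were higher (2.43%), with a median log2 difference of -1.67 over the 9 and -0.02 over all probe sets. The log2 differences were -5.85 for Nr1d1, -3.80 for Nr1d2, -4.24 for Dbp, -1.31 for Tef, -0.79 for Hlf, -0.79 for Per1, -1.80 for Per3 and -1.67 for Bhlhe41, and 0.30 for Per2. The arrays did not overlap for 5 of the 8 (2.75% of all probe sets), and 1, Nr1d1, passed after adjustment (0.0182%). Hlf was not called when CIH 12W replicate 2 (-0.78) or 3 (-0.63) was left out, when replicate 1 (-0.57) or 2 (-0.72) of CIH 8W + Nor 4W was, or with the brown adipocyte term (-0.75). Nr1d1 was at -6.66 without CIH 12W replicate 3, and Nr1d2 at -4.48 without CIH 12W replicate 1.

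The normoxic groups of 12 and 8 weeks differed as well. Of the 9 genes, 3 were higher in Nor 12W (4.21% of all probe sets) and 1 was lower (3.11%). Nr1d1 averaged 11.31 in Nor 12W and 8.20 in Nor 8W, a log2 difference of 3.11 ± 0.81, 8.64-fold higher, with an adjusted p of 0.234. Without Nor 8W replicate 1 it was 15.5-fold higher (3.95). Nr1d2 (1.68 ± 0.59, adjusted p 0.455) and Dbp (1.81 ± 0.68, adjusted p 0.491) were also higher. Per2 was lower in Nor 12W, 6.63 against 7.75 in Nor 8W (log2 difference -1.11 ± 0.41, adjusted p 0.480), and its 2 groups did not overlap (0.737% of all probe sets). None of the 9 passed after adjustment, where 0.044% of all probe sets did. The difference of Nr1d1 between the normoxic groups was thus 3.11 against -4.13 for CIH 12W vs. Nor 12W. Both comparisons share the Nor 12W arrays. Without the neuron-rich arrays Nr1d1 (2.77) and Per2 (-1.13) were called Nr1d2 (1.35) and Dbp (1.30) were not, and Per3 was at -0.0055 against 0.05 with all arrays. No list of cell markers had more than 2 called in this comparison, the most being 2 of 8 smooth muscle markers, lower in Nor 12W, and 2 of 7 markers of adipocytes of either kind, higher in Nor 12W.

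Within groups, the 9 genes varied more than most probe sets. Their pooled within-group SD ran from 0.39 for Per1 to 1.35 for Nr1d1, at the 92.9th to the 99.5th percentile of all probe sets. Only 27.3 to 35.9% of probe sets were above background on an array. A rank among those alone was not taken. The same arrays were high or low for several genes at once. In CIH 8W + Nor 4W replicate 1 was the highest for 7 of the 9 and replicate 4 the lowest for all 9. In Nor 12W replicate 5 was the lowest for all 9. In CIH 8W replicate 1 was the highest for 6 genes, and replicates 3 and 5 were the lowest for 4 and 5. In Nor 8W replicate 5 was the lowest for 7 genes, and in CIH 12W replicate 1 was the highest for 7. Kendall's W, which is 1 where all genes rank the arrays of a group alike and 0 where they do not agree at all, was 0.49 in CIH 12W, 0.93 in CIH 8W + Nor 4W, 0.66 in Nor 12W, 0.67 in CIH 8W arrays and 0.28 in Nor 8W arrays. Of the 5 neuron-rich arrays, CIH 8W replicates 3 and 5 were low for the 9 genes, with a mean standardized signal (the mean over the 9 genes of each gene's distance from its mean over 23 arrays, in SDs) of -1.05 and -1.11. The other 3, Nor 12W replicates 3 and 4 and Nor 8W replicate 3, were not, at 0.27, 0.24 and -0.07.

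**Figure D3:**
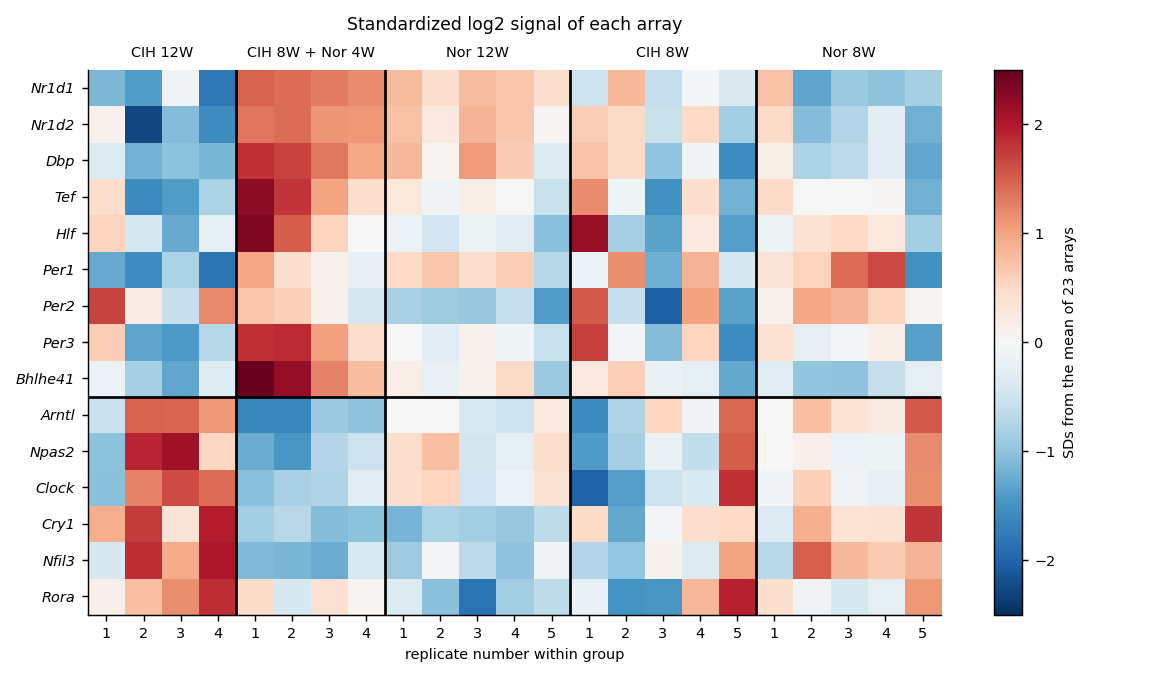
Signal of the 9 genes (above the line) and of 6 activator-phase genes (below it) on each of 23 arrays, in SDs from the gene's mean over all arrays, with groups from left to right and replicates within them. The columns that are red above the line, such as the 4 CIH 8W + Nor 4W arrays and CIH 8W replicate 1, are mostly blue below it.

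Of the 36 pairs among the 9 genes, 34 had a Pearson r above 0 over the 23 arrays, with a median of 0.61. Between deviations from the group means, which leave out the differences between groups, 34 pairs were again above 0, with a median r of 0.55 (Spearman's rho above 0 for 35, median 0.56). The points share arrays, and each array's values come from 1 RNA preparation. Tef and Per3 were the closest pair, with an r of 0.97 over the arrays and of 0.97 between deviations. Hlf followed them (deviations, 0.89 with Tef). Nr1d2 and Dbp had an r of 0.92 over the arrays and of 0.83 between deviations. Nr1d1 stood apart: its deviations had an r of 0.54 with Nr1d2 and 0.44 with Dbp, but 0.16 with Tef, 0.10 with Per3, -0.17 with Hlf and -0.22 with Per2. Per2 went with Tef within groups (0.85) and had an r of -0.35 with Nr1d1 over the arrays.

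**Figure D4:**
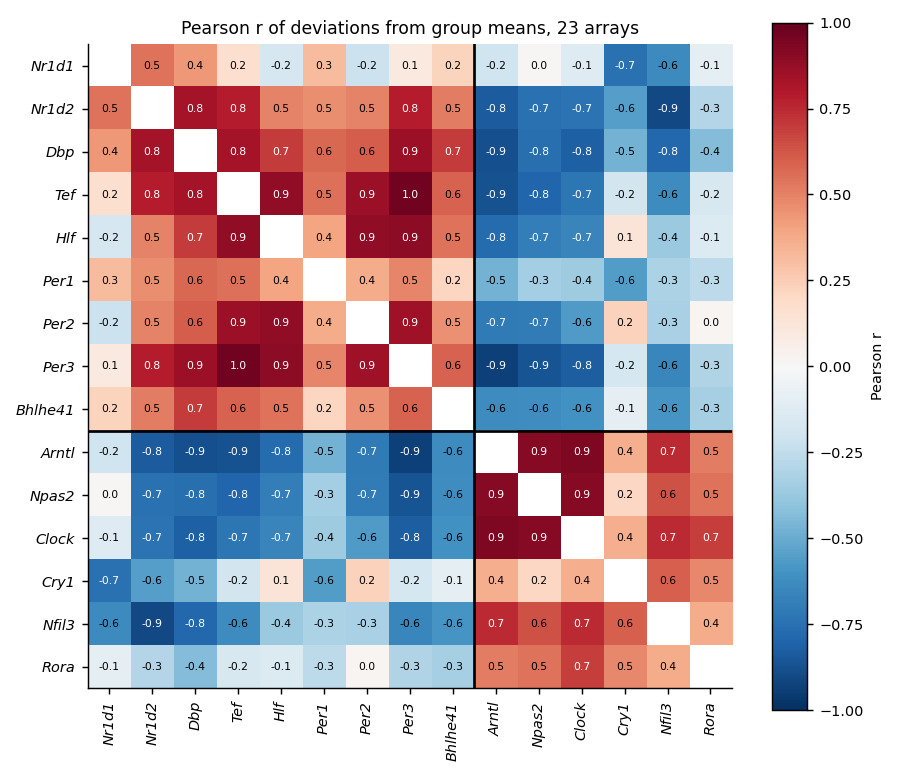
Pearson r between deviations from the group means over 23 arrays, for each pair among the 9 genes (upper left of the lines) and 6 activator-phase genes (lower right). Most pairs within each block are red, with a median of 0.55 among the 9 genes, and most pairs across the blocks are blue, with a median of -0.58.

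The activator arm mostly ran against them. The list held Arntl, Npas2 and Clock, which encode the activators, Cry1, a late repressor, Nfil3, which competes with the PAR bZip factors at D-boxes, and Rora, an activator of Arntl. Of 54 pairs of 1 of the 9 genes with 1 of these 6, 51 had an r below 0 over the arrays (median -0.63), and 50 between deviations (median -0.58). The paper lists Arntl, Npas2, Cry1 and Nfil3 as higher in CIH 12W than in CIH 8W + Nor 4W. Most of the 9 genes were chosen through the same comparison, so r between the lists over the arrays is partly set by it. By gene, the median between deviations was -0.77 for Arntl, -0.70 for Npas2, -0.66 for Clock and -0.63 for Nfil3. It was weaker for Rora (-0.26) and Cry1 (-0.19). The 3 pairs above 0 over the arrays were those of Per2 with Cry1 (0.46), Rora (0.35) and Nfil3 (0.10). Arntl ran from 8.40 to 11.39 in CIH 12W, from 6.78 to 7.84 in CIH 8W + Nor 4W, from 8.43 to 9.58 in Nor 12W, from 6.86 to 11.32 in CIH 8W arrays and from 9.21 to 11.47 in Nor 8W arrays. Arrays low for the 9 genes were mostly high for Arntl. CIH 12W replicate 1 was its lowest of that group, and CIH 8W replicate 5 and Nor 8W replicate 5 were the highest of theirs. In CIH 12W vs. Nor 12W, 3 of the 6 were higher, Cry1 (1.91 ± 0.35, adjusted p 0.0107), Nfil3 (0.96) and Rora (0.90), and Arntl was not called (1.48 ± 0.71, adjusted p 0.422). In CIH 8W + Nor 4W vs. Nor 12W, Arntl (-1.72) and Npas2 (-1.49) were lower. In Nor 12W vs. Nor 8W, Cry1 (-1.36), Nfil3 (-0.67) and Rora (-0.51) were lower, and in CIH 8W vs. Nor 8W none was called at an unadjusted p under 0.05. Clock, with differences of 0.22, -0.29, -0.04 and -0.26 in these 4 comparisons, was called in none of them.

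**Figure D5:**
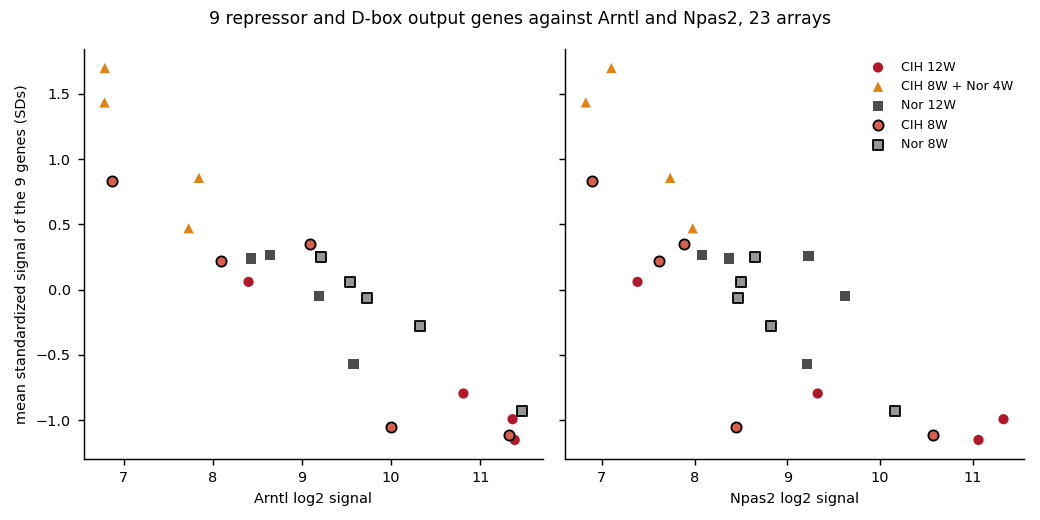
Mean standardized signal of the 9 genes (vertical axis, SDs) against the log2 signal of Arntl (left) and Npas2 (right) on 23 arrays, with the group of each array shown by its symbol. The arrays with the least Arntl, CIH 8W + Nor 4W replicates 1 and 2 at 6.79 and 6.78, have the highest mean standardized signals, 1.70 and 1.43.

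Of 5 other genes that the activator pair is known to drive, Bhlhe40, which encodes the repressor DEC1 and is the close relative of Bhlhe41, had log2 differences of 0.91 in CIH 8W + Nor 4W vs. Nor 12W, 0.96 between the 8-week groups and 1.00 in Nor 12W vs. Nor 8W, all called, and was not called in CIH 12W vs. Nor 12W (-0.43). Cry2, a repressor that partners the Period proteins, was called in all 4: against Nor 12W it was higher in CIH 12W (0.74) as well as after recovery (0.62), and against Nor 8W it was lower in Nor 12W (-0.66) as well as in CIH 8W aortas (-0.39). Usp2, a ubiquitin protease, was higher in CIH 8W + Nor 4W than in Nor 12W (0.25). Nampt, an enzyme of NAD synthesis, was lower in Nor 12W than in Nor 8W (-0.52). Wee1, a cell cycle kinase, was called in none of the 4. Among 6 kinases and ubiquitin ligases that set the life of clock proteins, Csnk1d (0.17) and Fbxw11 (0.19) were higher in CIH 12W vs. Nor 12W, and Fbxl21 (0.29, above background on 9 of 23 arrays) was higher in CIH 8W + Nor 4W vs. Nor 12W. Csnk1d was also lower in Nor 12W vs. Nor 8W (-0.16). Of 2 enzymes known in mice as targets of the PAR bZip factors, Alas1 (haem synthesis) was higher in Nor 12W than in Nor 8W (0.64), and Pdxk (vitamin B6 activation) was not called in any of the 4. Hormone and activity genes moved too. Of 8 glucocorticoid-responsive genes 4 were lower in CIH 12W vs. Nor 12W, the first 3 by p being Pdk4 (-2.09), Tsc22d3 (-0.73) and Errfi1 (-0.64), with a median of -0.49 for the list against -0.03 for all probe sets. Of 7 immediate early genes 4 were higher, the first 3 by p being Fosb (0.73), Fos (2.39) and Nr4a1 (1.97), with a median of 0.73. In CIH 8W + Nor 4W vs. Nor 12W, 3 of the glucocorticoid-responsive genes were again lower, Errfi1 (-1.27), Tsc22d3 (-0.85) and Pdk4 (-1.49), and 3 of the immediate early genes were again higher, Egr1 (1.02), Nr4a1 (1.93) and Fos (1.95). The part of either in the values of the 9 genes was not tested, and neither was that of the hour of collection.

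Likeness was measured as the Pearson r of a gene's log2 signal with the mean standardized signal of the 9 genes over 23 arrays, among 13030 other genes above background on at least 12 arrays. The 6 most like were Tcap (0.91, Spearman's rho 0.89), which encodes a protein of the sarcomere Z-disc, Fam76a (0.81), Dusp14 (0.78), a phosphatase of MAP kinases, Pdcd4 (0.78), an inhibitor of translation, 3425401B19Rik (0.75) and Hspb7 (0.71), a small heat shock protein of muscle. Tcap averaged 6.55 in CIH 12W, 9.78 in CIH 8W + Nor 4W, 8.05 in Nor 12W, 7.17 in CIH 8W arrays and 7.41 in Nor 8W arrays. Its r was 0.80 between deviations from the group means and 0.84 without the 2 arrays farthest from the median. The 6 least like were Arntl (-0.93, rho -0.92), Leo1 (-0.85), a subunit of the PAF1 complex of transcription elongation, Npas2 (-0.83), Mboat1 (-0.81), a lysophospholipid acyltransferase, Nfil3 (-0.78) and Gramd4 (-0.78). For Arntl the r was -0.91 between deviations and -0.91 without the 2 arrays farthest from the median. The paper lists Arntl, Npas2, Nfil3 and Tcap as changed between CIH 12W and CIH 8W + Nor 4W. Most of the 9 genes were chosen through that comparison, so the places of these genes are partly set by that choice. Over all 13030 genes, 2.01% had an r over 0.5 and 1.90% an r under -0.5. The mean level of skeletal muscle markers had an r of 0.36 (rho 0.48) with the mean standardized signal of the 9 genes, and that of brown adipocyte markers 0.01.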

How the data were processed

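Aortic RNA was measured on 23 Clariom D mouse arrays, each taken as 1 sample. The labels call them biological replicates and say nothing of pooling, so p-values measure the spread between these samples. The authors deposited a log2 signal for each probe set on each array. Affymetrix Expression Console is named in the submitters' notes, with no version, and the Transcriptome Analysis Console in the methods, while the summary method is not given in the sources used here. The deposited values were used with no further normalization. Their log2 differences are wider than on the study's own scale, for bright probe sets and for the dimmer genes Tef, Per3 and Bhlhe41. Of 72688 probe sets 6732 controls were left out. Of the 65956 kept, 30638 carry 1 symbol, 2176 several and 33142 none. Background was the 95th percentile of each array's background probes. The number of arrays limits the precision.

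limma 3.58.1 (R 4.3.3) was fitted with a mean for each group, empirical Bayes moderation and Benjamini-Hochberg adjustment over all probe sets, called genes by the cutoffs the methods name, and was tested on simulated data. Deviations, ranks and r were computed in Python 3.11.15 and are descriptions. The 9 genes and all gene lists were chosen with earlier results of these data known. Genes named are the 9, all genes of the activator-phase list and of the E-box driven list that had a probe set of their symbol alone, up to 3 called genes by smallest p of the other clock, hormone and immediate early lists, the 2 brightest of a cell marker list that is discussed, and the 6 most and 6 least like the mean of the 9. Elovl3 was named after its values were seen. Alternatives were other scalings, moderation and array weights, 2-group fits, removal of dim probe sets, a replicate block, and each array left out in turn; removal of the neuron-rich arrays and the brown adipocyte term were chosen after seeing the data. Pairs of arrays with the same replicate number had a mean r of 0.05 (highest 0.63), and others -0.01 (highest 0.45). Of 23 arrays, 10 had their highest r with an array of their own number. For the 9 genes, replicate 1 had the highest mean rank in every group (1.22 in CIH 12W, 2.11 in Nor 8W). Replicate 5 had the lowest in Nor 12W (5.00), CIH 8W (4.44) and Nor 8W (4.22). Whether the numbers stand for a shared condition was not tested.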

Additional observations from a re-analysis of the deposited data

Results flagged for a closer look

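Of 45 sets of a gene's arrays within a group, 3 held 1 array that stood far from the rest, and chance gives about 1 in 20. Nr1d1 read 11.57 on Nor 8W replicate 1, where the other 4 arrays of the group read 6.64 to 7.82. Tef read 5.68 on Nor 8W replicate 5, and Per1 6.30 on Nor 12W replicate 5, each below the rest of its group. In the limma interaction, the CIH minus normoxia difference at 12 weeks was unlike that at 8 weeks for 4 genes before adjustment. Of these, 3 were below 0 (6.16% of all probe sets) and 1 was above 0 (4.27%). The CIH 12W arrays had a part in the choice of the 9 genes, so these counts are a description. None passed after adjustment. The log2 values were -5.38 for Nr1d1, -3.62 for Nr1d2, -2.94 for Dbp and 1.82 for Per2. They also hold the difference between the normoxic groups, which was 3.11 for Nr1d1. The part of the hour of collection was not tested.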

How the results depend on the processing

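At an adjusted p under 0.05 in limma, CIH 12W vs. Nor 12W called 2 of the 9 genes, and 1 was called between the CIH 12W and recovery groups. None (0) passed in the recovery comparison against Nor 12W, between the normoxic groups or in the difference of the CIH effects. Fitted on its own arrays alone, the recovery comparison called 8 in place of 5. Without the neuron-rich arrays 2 were called between the 8-week groups and 2 between the normoxic groups. With 1 array left out at a time the count ran from 0 to 2 between the 8-week groups and from 2 to 6 in the recovery comparison. It stayed at 5 in CIH 12W vs. Nor 12W and at 4 between the normoxic groups. No called value changed sign under any alternative. With a replicate block, Tef was called between CIH 12W and Nor 12W (-0.60), and Per1 (-0.71) and Bhlhe41 (-0.82) in the difference of the CIH effects. Whether the replicate numbers pair the arrays is not known. Nr1d1 and Per2 were also called in the recovery comparison after quantile normalization (1.82 and 0.95) or with array weights (1.73 and 0.90), and Bhlhe41 in the difference of the CIH effects with the brown adipocyte term (-0.89). The cause of these changes was not tested. With 4 or 5 arrays a group and within-group SDs up to 1.35, differences of the size of those not called here may go undetected.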
